A study of Mus musculus with 6 samples.

Results

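The transcripts described here encode the enzymes that take amino acids apart and the enzymes that turn the released ammonia into urea, 49 genes in all out of 23144 gene features counted in the study. They were chosen by name, with earlier results of these data known. Shares of all features set beside their counts below are therefore a description and no test of the set. The members fall into 6 groups. There are 17 genes of branched-chain amino acid breakdown, 5 of propionate and GABA and 9 of aromatic amino acids. A further 7 are of glycine, serine and sulfur amino acids, 4 of proline, ornithine and lysine, and 7 of the urea cycle. All 49 had at least 1 tag in the 6 libraries. The libraries come from mice of the C57BL/6 strain that carried the homozygous Atxn2 knockout (KO) and from wild-type mice (WT), at 6 months, in cerebellum, hippocampus and liver. Each library pools 3 animals of 1 genotype and tissue, so there is 1 library per genotype and tissue. Ataxin-2, the product of Atxn2, binds RNA and is found on polyribosomes, and the study asked which transcripts change alike across tissues when it is lost. Tags were counted by MACE, a method that sequences 1 fragment near the 3' end of each polyadenylated transcript, so that tag counts can be set side by side between genes whatever their length.

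Branched-chain amino acids (leucine, isoleucine and valine) are first stripped of their amino group by the aminotransferases Bcat1 and Bcat2, and their keto acids are then oxidised by the branched-chain keto acid dehydrogenase complex, whose subunits are encoded by Bckdha, Bckdhb and Dbt and which is switched off by the kinase encoded by Bckdk. Adult liver is known for low branched-chain aminotransferase activity and high activity of the later steps. The aromatic, sulfur and urea cycle enzymes are classic hepatocyte products. Cps1, Otc, Ass1, Asl and Arg1 carry out the successive steps of the urea cycle, and Nags makes the activator that Cps1 needs.

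Atxn2 itself checked the labels: it had 0 tags in KO cerebellum against 167 in WT, 1 in KO hippocampus against 194 in WT, and 2 in KO liver against 115 in WT. Gene tags per library numbered 1774523 to 2727523, with KO liver the shallowest. By the edgeR tissue comparisons used below, 6 of 6 markers of cerebellum were higher in cerebellum than in hippocampus, 6 of 6 of hippocampus were lower there, and 12 of 12 of hepatocytes were higher in liver than in brain. Xist, the RNA of the inactive X chromosome, had 0 tags in each KO library, against 34, 49 and 87 in WT cerebellum, hippocampus and liver, while the Y-linked gene Ddx3y had tags in every library. In liver, 9 of 9 female-biased transcripts with a mean level of at least 10 CPM (tags per 1e6 after TMM scaling) were lower in KO, with 57 tags summed over the 11 listed against 6423 in WT. The sexes in the pools and the genotype therefore cannot be told apart in any KO and WT value below.

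The promoters of several members are shown first. Of the 4 members lower in KO liver by the size rule given below, 3 (Ivd, Mccc1 and Ccbl2) hold the CCAAT box letters. This element is bound by the factor NF-Y. RefSeq windows, from 250 before to 50 after a transcript start, were at hand for 37 of the 49 members (42 windows). The letters CCAAT, searched on both strands, stood in 26 of the 42 windows (61.9%), against 37.4% of all 32851 windows. Members with a KO to WT interval above 0 in liver, given below, held them too: Hsd17b10, Tat, Hgd, Cbs and Bhmt, but not Ass1. Kynu, Asl and Arg1, also above 0 there, have no window. The 3 windows below are read 5' to 3' on the gene's strand, on build GRCm38.p6, with CCAAT or its reverse complement ATTGG in capitals. The Ivd window lies at chr2:118861744-118862043 on the plus strand, that of Mccc1 at chr3:36000629-36000928 on the minus strand, and that of Ccbl2 (Kyat3 in RefSeq) at chr3:142700798-142701097 on the plus strand. The fourth of those members, Acat1, is among the 12 without a window and was not searched.
Ivd: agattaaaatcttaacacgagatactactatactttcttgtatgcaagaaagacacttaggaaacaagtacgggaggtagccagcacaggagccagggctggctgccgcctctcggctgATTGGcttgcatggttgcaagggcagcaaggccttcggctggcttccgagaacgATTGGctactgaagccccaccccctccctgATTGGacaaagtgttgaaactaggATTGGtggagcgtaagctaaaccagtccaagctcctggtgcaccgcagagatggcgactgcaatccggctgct
Mccc1: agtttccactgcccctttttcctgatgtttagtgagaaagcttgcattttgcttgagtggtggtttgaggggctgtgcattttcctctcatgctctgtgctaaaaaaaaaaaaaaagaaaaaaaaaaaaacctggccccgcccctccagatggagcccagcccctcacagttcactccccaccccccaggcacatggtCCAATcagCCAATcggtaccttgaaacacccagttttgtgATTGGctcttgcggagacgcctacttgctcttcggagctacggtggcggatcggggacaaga
Ccbl2: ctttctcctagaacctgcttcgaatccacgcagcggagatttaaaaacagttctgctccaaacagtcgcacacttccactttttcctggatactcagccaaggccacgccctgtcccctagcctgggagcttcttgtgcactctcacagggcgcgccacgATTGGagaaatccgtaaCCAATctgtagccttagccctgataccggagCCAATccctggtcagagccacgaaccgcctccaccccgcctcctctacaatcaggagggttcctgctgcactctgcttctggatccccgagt

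The same windows differed widely in CpG content, which is often high in promoters of broadly used genes. The ratio of observed to expected CpG had a median of 0.606 in the branched-chain windows and 0.791 in the propionate and GABA windows, 0.583 in the urea cycle and 0.531 in the proline, ornithine and lysine windows, 0.426 in the glycine, serine and sulfur windows and 0.321 in the aromatic windows, against 0.384 over all windows. Hibadh (chr6:52640251-52640550, minus strand), a valine enzyme found in liver and brain, reached 0.918 with 28 CG pairs. Otc (chrX:10252055-10252354, plus strand), the lowest of the urea cycle windows, had 0.068 with 1 CG, and Tat (chr8:109990186-109990485, plus strand) had 0.243 with 5. CG pairs are in capitals below.
Hibadh: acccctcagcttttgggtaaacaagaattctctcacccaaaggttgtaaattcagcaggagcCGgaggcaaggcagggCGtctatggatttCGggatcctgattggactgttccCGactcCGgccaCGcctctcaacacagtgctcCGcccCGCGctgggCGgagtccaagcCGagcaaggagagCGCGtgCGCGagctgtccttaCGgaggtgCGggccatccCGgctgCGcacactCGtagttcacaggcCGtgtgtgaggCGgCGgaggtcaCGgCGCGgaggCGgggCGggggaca
Otc: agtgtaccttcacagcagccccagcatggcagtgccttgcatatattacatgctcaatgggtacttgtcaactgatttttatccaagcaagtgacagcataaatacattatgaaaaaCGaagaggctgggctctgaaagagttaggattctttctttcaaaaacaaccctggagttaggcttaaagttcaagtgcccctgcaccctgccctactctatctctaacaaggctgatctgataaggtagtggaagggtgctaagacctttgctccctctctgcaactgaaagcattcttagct
Tat: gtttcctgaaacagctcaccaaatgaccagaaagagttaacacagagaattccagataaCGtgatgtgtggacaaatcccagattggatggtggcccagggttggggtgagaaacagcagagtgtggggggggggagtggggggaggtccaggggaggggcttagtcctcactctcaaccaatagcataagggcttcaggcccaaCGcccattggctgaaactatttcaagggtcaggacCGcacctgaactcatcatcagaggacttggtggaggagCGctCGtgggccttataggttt

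The TATA box (TATAAA, both strands) stood in 4 of the 42 windows (9.52%), those of Bcat1, Bckdk, Hgd and Tdo2, against 13.6% of all windows. The cAMP response element TGACGTCA, the C/EBP palindrome TTGCGCAA and the HNF4A motif CAAAGTCCA stood in 0 of the 42 windows, against 1.79%, 0.183% and 0.475% of all windows. The DR1 and glucocorticoid response element consensus words also stood in 0 of the 42, against 0.0396% and 0.00913% of all windows. None of these motifs contains another of them, and a match or its absence describes only these letters in these windows.

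Most members were higher in liver than in brain. Of the 47 members that passed the filter on low counts, 44 were higher in liver than in the 2 brain tissues and 2 were lower, by edgeR's quasi-likelihood test with an adjusted p under 0.05 and a log2 difference of at least 1. Over all 12905 features tested, 26.1% were higher and 30.1% lower in liver. The members' median log2 difference was 3.70, against -0.16 over all features. Members took 2.14% of gene tags in KO liver and 2.21% in WT liver, against 0.161% and 0.187% in KO and WT cerebellum and 0.127% and 0.165% in KO and WT hippocampus. Scaled by library totals alone, an alternative chosen after seeing the data, 36 members were higher and 3 lower in liver, since the median of all features then moved to -1.41. The shares of 26.1% and 30.1% hold for TMM scaling only, and those for library totals are not given here.

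**Figure D1:**
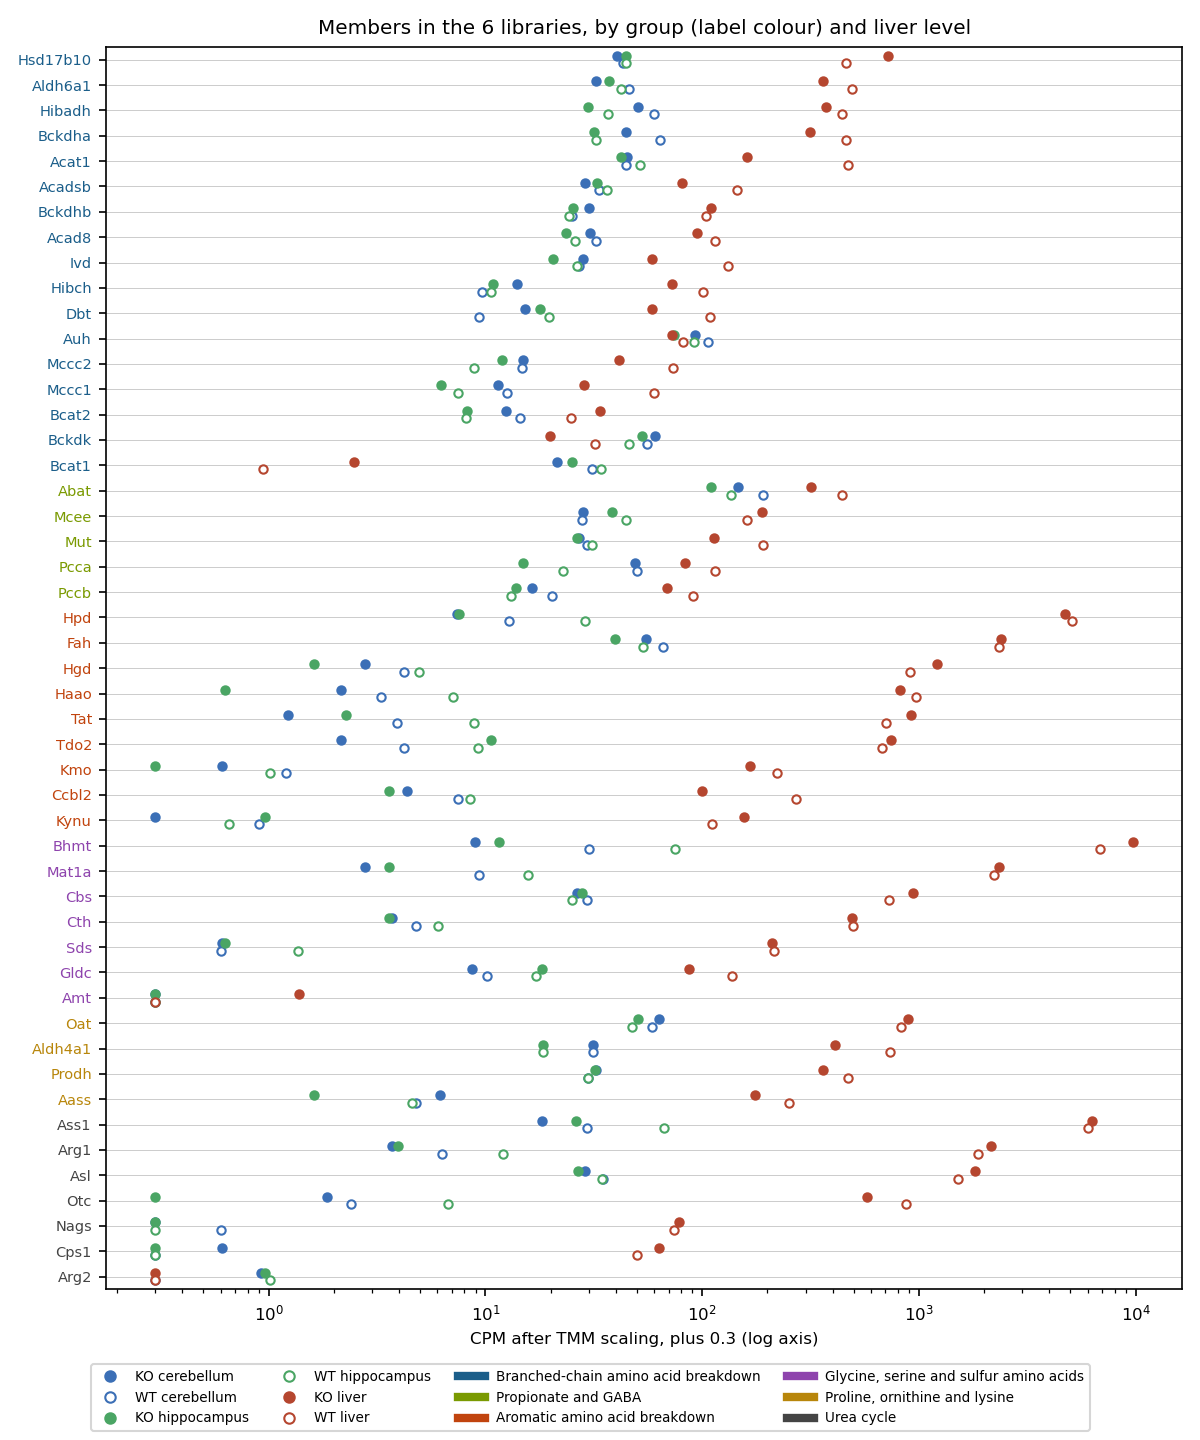
Level of each of the 49 members in the 6 libraries, in CPM after TMM scaling plus 0.3 on a log axis; filled points are KO and open points WT, colours give the tissue, and symbols are coloured by group. Aromatic, sulfur and urea cycle transcripts sit far to the right in liver (Bhmt at 9724 CPM in KO and 6871 CPM in WT), whereas branched-chain transcripts overlap or lie closer to the brain tissues.

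The liver to brain step was large for the urea cycle, aromatic and sulfur groups and smaller for branched-chain breakdown. The urea cycle group had a median log2 difference of 8.28 over 6 tested genes, from 5.70 for Asl to 9.50 for Nags. Nags and Cps1 had 1 tag each in the 4 brain libraries together, so the size of their differences is poorly measured. The 9 aromatic genes had a median of 8.16, and the 6 tested glycine, serine and sulfur genes one of 7.59. Among these, Kmo, Kynu and Sds had 0 to 3 tags in each brain library, so the same limit holds. The branched-chain group had a median of 2.20 over 17 genes, and among its genes higher in liver the largest differences were those of Hsd17b10 (log2 3.70), which acts on isoleucine and is also a subunit of mitochondrial RNase P, and of the valine enzyme Aldh6a1 (log2 3.38). A few genes held much of the liver total: Bhmt, which remethylates homocysteine with betaine, took 23.6% of the members' tags in KO liver and 17.7% in WT liver, Ass1 15.3% and 15.5%, and the tyrosine enzyme Hpd 11.4% and 13.0%. Branched-chain genes took 6.32% of the members' tags in KO liver and 8.48% in WT liver, but 49.8% and 47.2% in KO and WT cerebellum.

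The branched-chain aminotransferase isozymes were split by tissue. Bcat1, the cytosolic form, had 21.1 and 30.9 CPM in KO and WT cerebellum, 24.8 and 33.9 CPM in KO and WT hippocampus, and 2 tags in KO liver against 1 in WT liver. Its log2 difference of liver over brain was -4.55 (SE 0.49, edgeR adjusted p = 2.99e-08). Bcat2, the mitochondrial form, had 33.5 and 24.5 CPM in KO and WT liver, 12.1 and 14.1 CPM in KO and WT cerebellum, and 7.94 and 7.86 CPM in KO and WT hippocampus. It was higher in liver (log2 1.42, edgeR adjusted p = 6.82e-05), though with library totals the difference was 0.16 (edgeR adjusted p = 0.57).

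The kinase transcript Bckdk was also lower in liver, with 19.5 and 31.7 CPM in KO and WT liver against 45.7 to 60.4 CPM in the 4 brain libraries (log2 -1.05, edgeR adjusted p = 0.000271). Without the KO liver library its log2 difference was -0.73, short of the size limit. Bckdk is uncertain for another reason. Of the tags in records that name it, 31.2% stood in records shared with other named genes, and these are not in the CPM given. Auh, a leucine enzyme that also binds AU-rich RNA, did not pass (log2 -0.29, edgeR adjusted p = 0.119), with 72.5 and 81.4 CPM in KO and WT liver and 73.7 to 106 CPM in brain.

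Among the isozymes of the last urea cycle step, Arg1 had 2140.1 and 1862 CPM in KO and WT liver and 3.41 to 11.8 CPM in the 4 brain libraries. Arg2, the mitochondrial form, had 6 tags in all, 2 in KO cerebellum and 2 each in KO and WT hippocampus, and 0 in both livers. Cps1, among the most abundant mitochondrial proteins of hepatocytes, had 58 tags in KO liver and 77 in WT liver, far below Ass1 with 5816 and 9319. Amt, the aminomethyltransferase of the glycine cleavage system, had 1 tag, in KO liver. Tags were assigned to RefSeq records, and whether the listed records of Cps1, Amt and Arg2 hold the 3' ends used in these tissues was not tested.

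Few members were called different between the brain tissues. Of 47 members tested, 1 was higher in cerebellum and 1 lower, against 8.29% and 10.1% of all features (edgeR, adjusted p under 0.05 and log2 difference of at least 1). Low brain levels limit this count, since 30 of the 49 members had a mean of at least 10 CPM in each brain tissue. Kmo, Kynu, Sds, Cps1 and Nags passed the filter through liver and had 0 to 3 tags in each brain library, too few for a call. Pcca, the alpha subunit of propionyl-CoA carboxylase, had 48.6 and 49.5 CPM in KO and WT cerebellum and 14.5 and 22.5 CPM in KO and WT hippocampus (log2 1.42, SE 0.21, edgeR adjusted p = 1.67e-05). Its partner Pccb had a log2 difference of 0.44 (edgeR adjusted p = 0.213). Tdo2, which opens the indole ring of tryptophan, had 1.86 and 3.90 CPM in KO and WT cerebellum and 10.3 and 8.93 CPM in KO and WT hippocampus (log2 -1.72, SE 0.39, edgeR adjusted p = 0.00171). Without the KO cerebellum library Tdo2 had an edgeR adjusted p of 0.163.

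The effect of the knockout was asked first across the 3 tissues, with tissue as a block. Of 42 members tested, 1 fell and 0 rose by edgeR at an adjusted p under 0.05, against 0.0879% of all 11377 features lower and 0.00879% higher. At an unadjusted p under 0.05, edgeR had 15 members lower and 0 higher, against 2.93% and 1.96% of all features. DESeq2 had 3 lower and 0 higher at that p, against 0.809% and 0.281% of features, with 0 members past its adjusted threshold. The members' log2 ratio of KO over WT lay below 0 for 33 of 42, against 50.5% of all features, with a median of -0.29, against -0.00 over all features. The hepatocyte markers lay further the same way, 12 of 12 below 0 with a median of -0.72 and 6 lower at an unadjusted p under 0.05, and red blood cell transcripts lay the other way, 5 of 5 above 0 with a median of 0.64 and 1 called higher by edgeR. The part of either list in the members' values was not tested. These p-values measure how far the tissues of the same pools move alike, not the spread between animals.

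Ccbl2, a kynurenine aminotransferase that also cleaves cysteine conjugates (chromosome 3, 142701019 to 142744911), was the member that fell. It had 4.03 CPM in KO cerebellum against 7.19 in WT, 3.31 CPM in KO hippocampus against 8.22 in WT, and 99.5 CPM in KO liver against 271 in WT. All 3 KO libraries were below their WT partner, and the counting interval of the ratio included 0 in cerebellum only. The log2 ratio across tissues was -1.33 (SE 0.20, edgeR adjusted p = 0.00674). DESeq2 gave an adjusted p of 0.879 at a log2 ratio of -1.22, edgeR without the tissue block 1.0 at -1.45, and edgeR without the liver libraries 0.392 at -1.05.

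**Figure D2:**
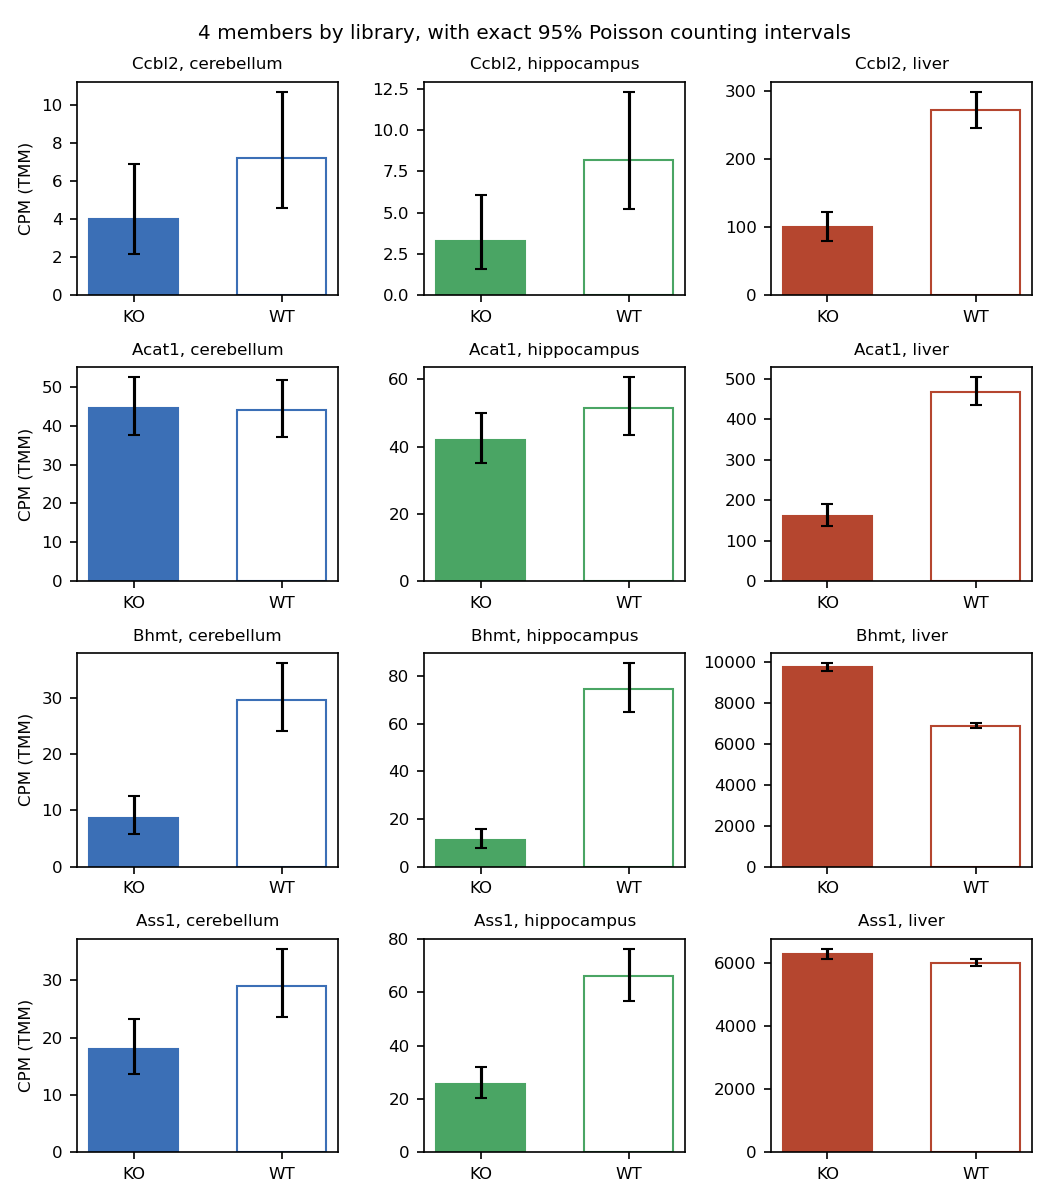
CPM after TMM scaling of Ccbl2, Acat1, Bhmt and Ass1 in each tissue, KO bar filled and WT bar open, with exact 95% Poisson counting intervals and 1 library per bar. Ccbl2 is lower in KO in each tissue, Acat1 is lower mainly in KO liver (161 CPM against 468 CPM in WT), and Bhmt and Ass1 are lower in the KO brain libraries but not in KO liver.

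By group, 13 of the 17 branched-chain genes lay below 0 across tissues (median -0.23), 4 of 5 propionate and GABA genes, 5 of 7 aromatic genes, 4 of 5 glycine, serine and sulfur genes, 3 of 4 proline, ornithine and lysine genes and 4 of 4 urea cycle genes, with none but Ccbl2 past the test. Of all features 50.5% lay below 0. The hepatocyte marker median of -0.72 was further from 0 than that of any of these groups, of which the urea cycle had the lowest (-0.49). Other genes of amino acid metabolism had medians nearer 0: 28 of 41 other amino acid breakdown enzymes lay below 0 with a median of -0.10, 13 of 16 amino acid transporters with a median of -0.12, and 9 of 14 regulators with a median of -0.03. In these 3 lists edgeR called 0, with 2, 1 and 0 genes lower and 0, 0 and 1 higher at an unadjusted p under 0.05, and DESeq2 called 0. Among the 27 members with a mean of at least 10 CPM in each tissue, 10 (37.0%) had a KO to WT ratio below 1 in all 3 tissues, against 13.5% of 6016 features. These 10 were Bckdha, Acadsb, Acad8, Auh, Hibadh, Aldh6a1, Pcca, Mut, Abat and Aldh4a1, and 2 members (Bckdhb and Oat) lay above in all 3 (7.41%, against 13.3% of features).

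Within liver, where the members are abundant, the groups went different ways. There is 1 library per genotype, so no test was made, and each log2 ratio of KO over WT is given with an exact 95% counting interval that covers counting error only. Of 46 members with a mean of at least 10 CPM, 22 had an interval below 0 and 9 above 0, against 10.1% and 12.2% of 8249 features. The interval narrows as tags rise, so an abundant transcript excludes 0 at a small ratio, as Ass1 did at 0.06. Many members are abundant in liver, and the features were not matched to them for level. By the size rule (a log2 ratio of at least 1 in absolute value and an interval that excludes 0), 4 members were lower and 0 higher, against 3.43% and 1.53% of features. The members' median was -0.24, against -0.02 for all features. Scaling by library totals moved both medians down, to -0.37 and -0.12, and DESeq2's size factors moved them up, to -0.14 and 0.09. With DESeq2's size factors 18 members had an interval below 0 and 14 above, against 6.65% and 17.6% of features, and Mccc1 no longer met the size limit (log2 -0.97). The intervals of Hibch, Hibadh, Pcca and Hpd then included 0, and those of Mcee, Fah, Tdo2, Mat1a and Oat lay above 0.

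Branched-chain breakdown was lower in KO liver along most of its length. Of 16 genes at this level 13 lay below 0, against 51.4% of all features, and the median was -0.51. The whole interval lay below 0 for 10 of the 16, against 10.1% of features. Acat1, the mitochondrial thiolase that splits the last isoleucine and ketone body intermediates (chromosome 9, 53580522 to 53610350), had 149 tags in KO liver and 725 in WT liver, a log2 ratio of -1.54 (interval -1.80 to -1.28). In the brain it had 44.6 and 44.1 CPM in KO and WT cerebellum and 42.0 and 51.4 CPM in KO and WT hippocampus, so that counting intervals excluded 0 in liver only.

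Leucine's isovaleryl-CoA dehydrogenase Ivd had 58.4 CPM in KO liver and 131 CPM in WT liver (log2 -1.17, interval -1.63 to -0.73), with 27.9 and 26.7 CPM in KO and WT cerebellum and 20.2 and 26.1 CPM in KO and WT hippocampus. Mccc1, the biotin-carrying subunit of the methylcrotonyl-CoA carboxylase that follows Ivd, had 28.1 CPM in KO liver and 59.4 CPM in WT liver (log2 -1.08, interval -1.77 to -0.44), with 11.2 and 12.3 CPM in KO and WT cerebellum and 5.95 and 7.14 CPM in KO and WT hippocampus. These liver ratios rest on few tags, 54 against 203 for Ivd and 26 against 92 for Mccc1. The other carboxylase subunit Mccc2 (log2 -0.83), the isoleucine dehydrogenase Acadsb (log2 -0.85) and the dehydrogenase core subunit Dbt (log2 -0.89) also had intervals below 0.

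The remaining branched-chain genes with an interval below 0 were Bckdha at -0.55, Hibch at -0.47, Aldh6a1 at -0.46 and Hibadh at -0.25. In KO liver these levels ran from 72.5 CPM for Hibch to 373 CPM for Hibadh. In WT liver they ran from 100.1 CPM for Hibch to 493 CPM for Aldh6a1, with Hibadh at 443 CPM. The exception in the group was Hsd17b10, with 668 tags in KO liver and 714 in WT liver (log2 0.65, interval 0.49 to 0.80). In the brain it had 40.0 and 42.9 CPM in KO and WT cerebellum and 44.3 CPM in both hippocampus libraries. By the mean of KO and WT it is the most abundant branched-chain transcript in liver. In WT liver Aldh6a1 (493 CPM) and Acat1 (468 CPM) stood above Hsd17b10 (461 CPM). Like Otc, Hsd17b10 lies on the X chromosome. Bcat2 (log2 0.45) and Bckdhb (log2 0.07) had intervals that included 0, as did Bckdk, Acad8 and Auh below 0.

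**Figure D3:**
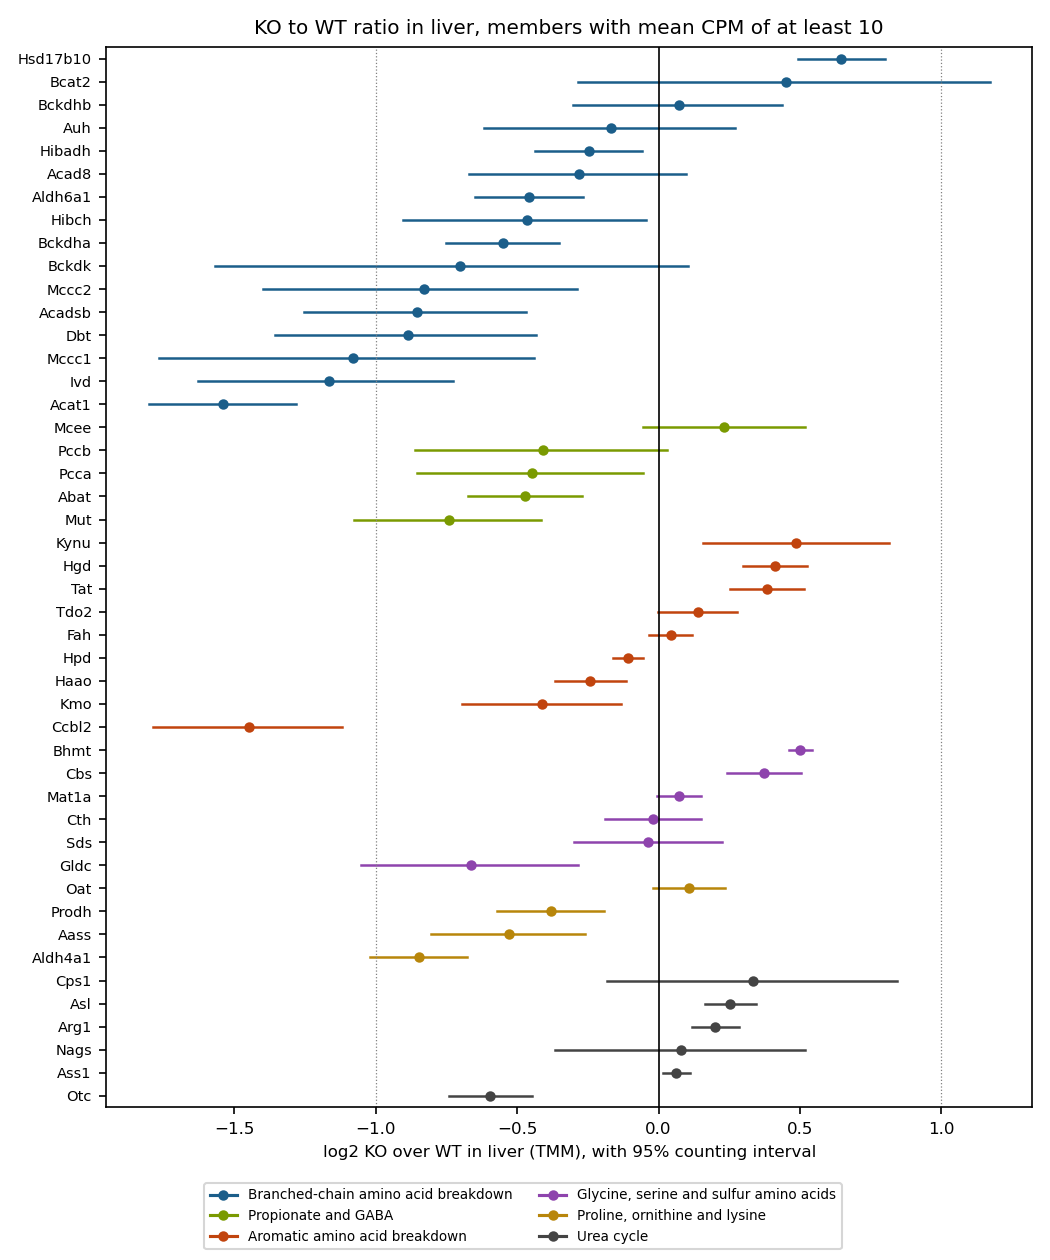
Log2 ratio of KO over WT in liver for the 46 members with a mean of at least 10 CPM, ordered by group and ratio, with 95% counting intervals; dotted lines mark a log2 ratio of 1 in either direction. Branched-chain genes lie mostly left of 0, down to -1.54 for Acat1, whereas urea cycle genes other than Otc (-0.60) lie from 0.06 to 0.33, with Ass1 at -0.06 when scaled by library totals.

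Propionate, the end product of valine and isoleucine, is carried into the citric acid cycle by Pcca, Pccb, Mcee and Mut. Mut, the mutase of the last step, had 114 CPM in KO liver and 190 CPM in WT liver (log2 -0.74, interval -1.08 to -0.42), with 26.6 and 29.1 CPM in KO and WT cerebellum and 26.1 and 30.7 CPM in KO and WT hippocampus. Mcee, the epimerase before it, had 188 CPM in KO liver and 160.2 CPM in WT liver, with an interval that included 0 (-0.06 to 0.52), and 27.9 and 27.6 CPM in KO and WT cerebellum and 38.0 and 44.3 CPM in KO and WT hippocampus. Pcca and Pccb had liver ratios of -0.45 and -0.41, the interval of Pccb including 0. Abat, which degrades the transmitter GABA, was lower beyond counting error in each tissue, with 145 CPM in KO cerebellum against 191 in WT, 109 CPM in KO hippocampus against 135 in WT and 317 CPM in KO liver against 439 in WT. Its cross-tissue log2 ratio was -0.39 (edgeR adjusted p = 0.913), so it did not pass the test.

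Of proline, ornithine and lysine breakdown, 3 of 4 genes had an interval below 0 in liver, against 10.1% of features. Aldh4a1, the second proline enzyme, had 408 CPM in KO liver and 733 CPM in WT liver (log2 -0.85, interval -1.02 to -0.68), with 31.0 and 31.2 CPM in KO and WT cerebellum and 18.2 CPM in both hippocampus libraries. Prodh, the first proline enzyme, and Aass, which opens lysine breakdown, had liver log2 ratios of -0.38 and -0.53. Oat, ornithine aminotransferase, had 887 and 822 CPM in KO and WT liver (interval -0.02 to 0.24), 63.2 and 58.5 CPM in KO and WT cerebellum and 50.3 and 47.2 CPM in KO and WT hippocampus.

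The aromatic group was mixed in liver, with 3 genes above and 4 below 0 beyond counting error, against 12.2% and 10.1% of features. Ccbl2 was lowest at -1.45 (92 tags in KO, 420 in WT). Kynu, kynureninase, was highest at 0.49 (144 tags in KO liver and 172 in WT liver, interval 0.16 to 0.82), and had 0 to 2 tags in each brain library. Tat and Hgd, of tyrosine breakdown, had ratios of 0.38 and 0.41. Hpd, which acts between them and is the most abundant of the group, had 4704 CPM in KO liver and 5071 CPM in WT liver (log2 -0.11, interval -0.16 to -0.06), but its log2 ratio was -0.003 with DESeq2's size factors, whose interval included 0. Of the other tryptophan enzymes Kmo and Haao lay below 0 (log2 -0.41 and -0.24), while Tdo2, like the last tyrosine enzyme Fah, had an interval that included 0.

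Among the glycine, serine and sulfur genes, Bhmt had 9724 CPM in KO liver and 6871 CPM in WT liver (log2 0.50, interval 0.46 to 0.54), and Cbs, the first transsulfuration enzyme, had a ratio of 0.37. Gldc, the glycine decarboxylase, had 86.5 CPM in KO liver and 137 CPM in WT liver (log2 -0.66, interval -1.05 to -0.28), against 8.37 and 9.89 CPM in KO and WT cerebellum and 17.9 and 16.8 CPM in KO and WT hippocampus. Mat1a, which makes S-adenosylmethionine in liver, Cth and Sds had intervals that included 0.

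In the urea cycle Otc stood apart in liver. Otc, which makes citrulline, had 574 CPM in KO liver and 868 CPM in WT liver (log2 -0.60, interval -0.74 to -0.45). The later enzymes lay slightly above 0: Ass1 had 6289 CPM in KO liver and 6020.4 CPM in WT liver (log2 0.06), Asl 1809 and 1517 CPM (log2 0.25), and Arg1 2140.1 and 1862 CPM (log2 0.20), each with an interval above 0. With library totals Ass1 turned to -0.06 and Arg1 to 0.08 with an interval that included 0, so the direction for Ass1 depends on the scaling. Cps1 had 62.7 CPM in KO liver and 49.7 CPM in WT liver and Nags 77.9 and 73.6 CPM, and both intervals included 0.

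Of related genes in liver, 13 of 47 other breakdown enzymes had an interval above 0 and 9 below, against 12.2% and 10.1% of features. Mat2a, the S-adenosylmethionine synthetase of tissues other than liver, was highest (46 tags in KO, 35 in WT, log2 1.14), and Dld, the shared dehydrogenase subunit of the keto acid complexes and of glycine cleavage, was lowest (70 tags in KO, 245 in WT, log2 -1.06). Of 17 amino acid transporters, 4 lay above and 4 below, from Slc43a1 at -1.76 (6 tags in KO, 34 in WT) to Slc1a4 at 1.45 (18 in KO, 11 in WT). Of 15 regulators, 2 lay above and 4 below, and the glucagon receptor Gcgr was highest (log2 0.43). Hepatocyte markers had 9 of 12 intervals above 0 and 1 below in liver, with a median of 0.14. Red blood cell transcripts had 5 of 5 above 0 (median 1.06), and their part in the members' liver ratios was not tested.

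In the brain tissues the members that stood furthest apart were ones typical of liver. Ratios lay below 0 for 20 of 30 members in hippocampus and 20 of 30 in cerebellum, against 48.4% and 51.5% of features. In hippocampus 8 of 30 members had an interval below 0 and 0 above, against 10.6% and 12.4% of 8560 features, and by the size rule 3 were lower and 0 higher (features 1.03% and 0.432%). In cerebellum 6 of 30 were below 0 and 1 above (Dbt, with 48 tags in KO and 30 in WT), against 8.02% and 7.12% of 8538 features, and by the size rule 1 was lower and 0 higher (features 0.316% and 0.129%). Members with an interval below 0 included Bcat1, Auh, Pcca, Abat and Fah in hippocampus, and Bcat1, Bckdha, Aldh6a1 and Abat in cerebellum. Bcat1 had log2 ratios of -0.45 in hippocampus and -0.55 in cerebellum. Bhmt had 34 tags in KO hippocampus and 209 in WT (log2 -2.73, interval -3.30 to -2.20), and 28 tags in KO cerebellum and 99 in WT (log2 -1.77, interval -2.44 to -1.16).

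Hpd had 22 tags in KO hippocampus and 80 in WT (log2 -1.97, interval -2.73 to -1.28), and 23 tags in KO cerebellum and 42 in WT. Ass1, which neurons also use to recycle citrulline to arginine, had 78 tags in KO hippocampus and 185 in WT (log2 -1.36, interval -1.76 to -0.97), and 58 tags in KO cerebellum and 97 in WT. Haao had 1 tag in KO hippocampus and 19 in WT. Otc had 0 tags in KO hippocampus and 18 in WT, and 5 tags in KO cerebellum against 7 in WT. Asl had 80 and 96 tags in KO and WT hippocampus and 92 and 115 in KO and WT cerebellum, Arg1 11 and 33 in KO and WT hippocampus and 11 and 20 in KO and WT cerebellum. Cps1 had 1 tag, in KO cerebellum, and Nags 1 tag, in WT cerebellum.

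Hepatocyte markers moved the same way in these brain libraries. Their summed level was 307 CPM in KO hippocampus against 1403 CPM in WT, and 326 CPM in KO cerebellum against 579.7 CPM in WT, while all 12 markers were far higher in liver. In hippocampus 10 of 10 markers at 10 CPM or more had an interval below 0, with a median of -2.12. Expressed as a share of the liver level of the same genotype, markers in hippocampus stood at 0.0556% to 0.851% in KO (median 0.112%) and 0.383% to 1.25% in WT (median 0.615%), and in cerebellum at a median of 0.107% in KO and 0.283% in WT.

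In WT hippocampus and WT cerebellum 14 members lay in or under that marker range: Tat, Hpd, Hgd, Kmo, Haao, Kynu, Sds, Bhmt, Mat1a, Cps1, Otc, Ass1, Arg1 and Nags. This grouping was made after the values were seen and serves as a description. Summed, these 14 had 169 tags in KO hippocampus and 630 in WT, and 153 tags in KO cerebellum and 337 in WT. The 9 of them with enough tags for a ratio were all below 0 in either tissue, with a median of -2.11 in hippocampus and -0.82 in cerebellum, while in liver the median of the 14 was 0.08. The 32 members above the range had medians of -0.15 in hippocampus, -0.13 in cerebellum and -0.45 in liver. In bulk tissue a few cells with much of a transcript and many cells with little of it cannot be told apart, and the part of liver-type RNA in the brain values was not tested.

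**Figure D4:**
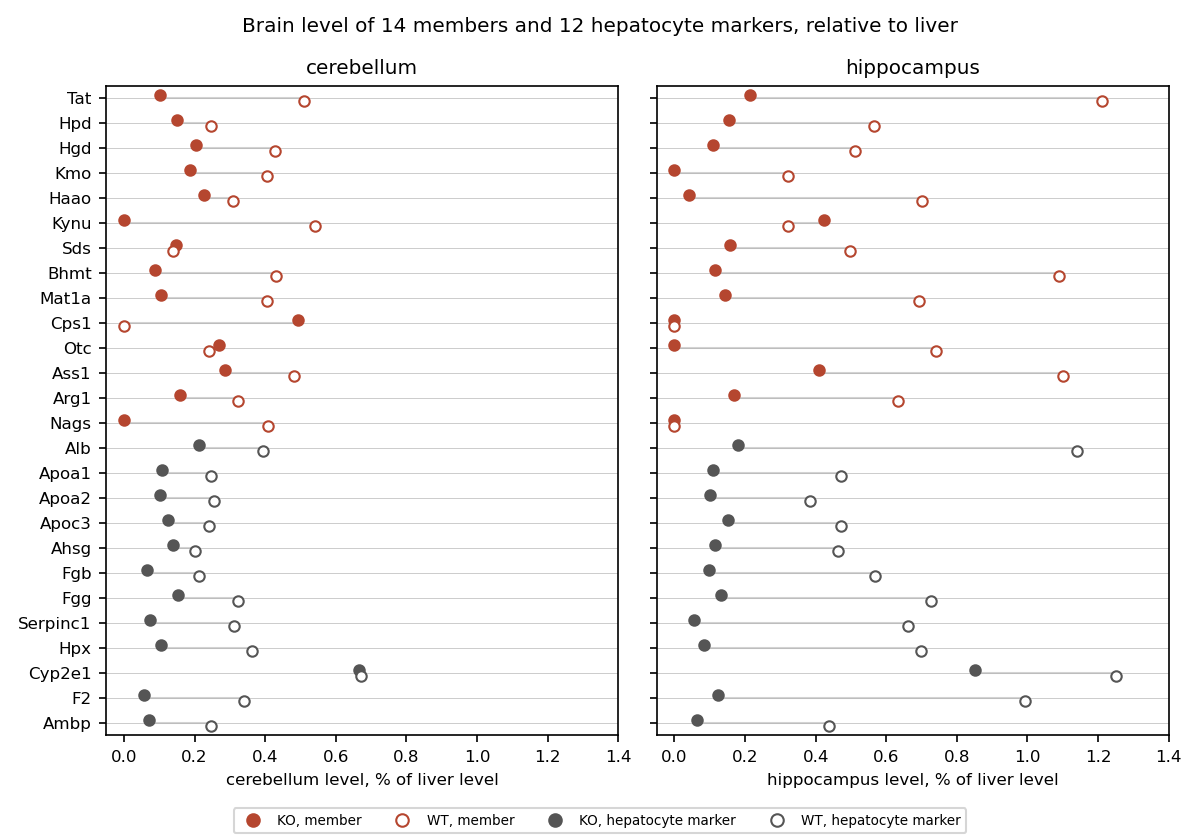
Level in cerebellum (left) and hippocampus (right) as a percentage of the level in liver of the same genotype, for 14 members and 12 hepatocyte markers; filled points are KO, open points WT. In hippocampus all 12 markers and 11 of the 14 members lie further left in KO (Kynu does not, and Cps1 and Nags are at 0), with Bhmt at 0.116% in KO and 1.09% in WT and the marker Alb at 0.179% in KO and 1.14% in WT. Of those 11, Kmo (0 tags in KO, 2 in WT) and Sds (1 in KO, 3 in WT) have too few tags for a direction. In cerebellum Otc, Sds and Cps1 lie further right in KO.

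Whether the KO effect differs between liver and brain was tested directly, by the difference of the KO to WT log2 ratios in 1 edgeR fit with 1 residual degree of freedom. That degree of freedom comes from the brain tissues, so the spread of liver is assumed to be that of brain. Of 47 members 3 were higher and 1 lower in this difference at an adjusted p under 0.05, against 0.86% and 0.279% of 12905 features. Acat1 had a difference of -1.42 (SE 0.28, edgeR adjusted p = 0.000348), with KO to WT log2 ratios of -1.54 in liver, 0.02 in cerebellum and -0.29 in hippocampus. Bhmt had 2.80 (SE 0.43, edgeR adjusted p = 3.83e-06), Tat 2.39 (SE 0.53, edgeR adjusted p = 0.00318) and Mat1a 2.10 (SE 0.46, edgeR adjusted p = 0.003).

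In the brain libraries Tat had 3 tags in KO cerebellum against 12 in WT and 6 in KO hippocampus against 24 in WT, and Mat1a 8 against 30 and 10 against 43. Of the hepatocyte markers, 6 of 12 were also called higher in this difference and 0 lower, so the results for Bhmt, Tat and Mat1a move with those markers, and Acat1 moves the opposite way; the part of the markers in these results was not tested. With DESeq2, 11 of the 47 members received an adjusted p, and Bhmt alone of them passed (adjusted p = 0.036). DESeq2 gave Acat1 no adjusted p, and a difference of -1.28 with an unadjusted p of 0.0795 in that model across all features. With library totals Tat no longer passed (edgeR adjusted p = 0.0648).

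Members on chromosome 5, which holds Atxn2 (121711609 to 121814950 on GRCm38.p6), were Sds, 1227.7 kb away, Hpd, 1356.9 kb away, and Asl, 8196.3 kb away, and their liver ratios were -0.04, -0.11 and 0.25. The other members lie on other chromosomes.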

How the data were processed

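Polyadenylated RNA of 6 pooled libraries was profiled with MACE. The values deposited are raw tag counts for each RefSeq record and were not normalized, per the file headers. Bases were called with CASAVA 1.8.2 and mm9 is named as the build, per the submitters' processing notes; positions and promoters here are RefSeq's on GRCm38.p6. No source used here names the aligner. The labels' protocol text names midbrain and ages in weeks where the sample labels give hippocampus and 6 months, and the sample labels were followed.

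Sense counts were summed by symbol. Records shared by several named genes formed joint features (4690 of 23144). Rows that name no gene (contigs, 22.5% to 29.6% of all listed tags, and tags without a hit, 7.21% to 8.83%) and antisense tags (1.55% to 1.79%) stayed out. CPM are tags per 1e6 after TMM scaling. Genotype (tissue as block) and tissue were tested with edgeR 4.0.16 (quasi-likelihood, filterByExpr, Benjamini-Hochberg over all features), with DESeq2 1.42.0 as an alternative. The edgeR fits were also run on counts simulated with the spread that edgeR itself had fitted. Those simulated libraries were independent, which the pools may not be, so that run cannot vouch for the p-values here. Within a tissue each ratio has an exact 95% Clopper-Pearson interval for counting error only, a count of 0 being set to a floor of 3 counts. Depth, 1774523 to 2727523 gene tags, sets that precision. Nothing says that the libraries of a genotype come from separate animals, and each p measures agreement between tissues or pools.

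The members and the other lists were chosen with earlier results of these data known. Named in full are members called in the cross-tissue test, the highest, lowest and most abundant member of each group in liver, members past the size rule, the urea cycle genes and the isozyme pairs; others are named where a count or a role called for them. Alternatives covered scaling, filters, collapse of rows, the tissue block, the size limit, DESeq2 and leaving out libraries. A gene that the naming rule picks among the regulators is not reported here.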

Additional observations from a re-analysis of the deposited data

Results flagged for a closer look

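In 4 members the KO effect in liver differed from that in brain by edgeR's test of the difference itself. That test assumes the spread of liver to be that of brain. Acat1, the mitochondrial acetoacetyl-CoA thiolase, had a difference of log2 ratios of -1.42. The tyrosine aminotransferase gene Tat had 2.39, the betaine and homocysteine methyltransferase gene Bhmt 2.80, and Mat1a, the S-adenosylmethionine synthetase gene of liver, 2.10. Taken against each brain tissue alone, the liver ratio minus the cerebellum ratio and minus the hippocampus ratio was -1.56 and -1.25 for Acat1, 2.34 and 2.50 for Tat, 2.28 and 3.23 for Bhmt, and 1.93 and 2.29 for Mat1a. These differences come from the same ratios as the test and have no test of their own. The brain values behind Tat rest on 3 to 24 tags per library.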

How the results depend on the processing

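No paired analysis was possible because animals 1, 2 and 3 of a genotype are pooled into 1 library per tissue, so animal numbers cannot serve as a block. KO and WT were matched by tissue in the fit across tissues, and tissues by genotype in the tissue fits. Across tissues, members called lower numbered 1, and 0 with DESeq2, 0 without the tissue block and 4 (Acat1, Ccbl2, Bhmt and Otc) without the filter on low counts. Leaving out 1 tissue gave 1 to 5, with Acat1 and Ccbl2 called without hippocampus, and Tat, Hpd, Bhmt, Mat1a and Ass1 but not Ccbl2 without liver. In liver over brain, leaving out 1 library gave 44 higher in each case and 1 to 2 lower. In cerebellum over hippocampus, members lower numbered 2 (Tdo2 and Bhmt) without the filter, and leaving out 1 library gave 1 to 2 higher and 1 to 5 lower, the most without KO hippocampus (Tat, Hpd, Tdo2, Bhmt and Ass1 lower, Pcca and Aldh4a1 higher). In the KO effect of liver against brain, DESeq2 called 1 member higher and 0 lower. A fit with 1 brain tissue left out has no residual degrees of freedom and gives values without a test. The counts in this paragraph come without the share of all features called at the same setting. They are therefore no result about the members as a set.

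Within cerebellum a size limit of 0.58 gave 1 member higher and 2 lower (1.35% and 2.05% of features), a mean of at least 1 CPM gave 3 of 42 lower (0.862%), and with the single highest record per gene 0 had an interval above 0. Within hippocampus library totals gave 5 lower by size (1.44% of features), and a mean of at least 1 CPM gave 10 of 42 lower by size (2.47%) and 15 with an interval below 0 (8.38%). Within liver DESeq2's size factors gave 14 members with an interval above 0 (17.6% of features, against 12.2% with TMM), a size limit of 0.58 gave 1 higher and 11 lower (4.13% and 6.73%), and Ass1 turned to -0.06 with library totals. The cause of these shifts was not tested. Depth limits the brain values of the liver-type members most, many of which rest on under 50 tags.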
